A study of Mus musculus with 2 samples.

Results

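The cytochrome P450 genes are described here as a family in a map of CTCF binding in newborn mouse lung. Members were the protein-coding genes of GENCODE M21 whose symbol has the form Cyp, family number, subfamily letter and gene number, which gave 99 of 21646 genes with a protein-coding transcription start site (TSS). Genes at most 100000 bp from the next member were chained into clusters, so that 74 members formed 16 clusters and the other 25 were called single-copy. "Single-copy" means only that no other member lay within that distance. The widest gap bridged inside a cluster was 98.2 kb, between Cyp2d9 and Cyp2d12, and the narrowest gap left unbridged was 106 kb, between Cyp2c69 and Cyp2c37. The assay was ChIP-seq with an antibody against CTCF on lung tissue of mice of strain B6NCrl at postnatal day 0, in 1 group of 2 replicates with no treatment in the labels. The labels give 1 biosample and 1 donor for both replicates, whose spread may therefore be technical, and no comparison group was analysed here. A site is a peak of the authors' optimal list, thresholded by the irreproducible discovery rate (IDR), with 64732 sites on chromosomes 1 to 19 and X. The peak signal is the value that the authors' peak caller gave, and the number of reads behind it is unknown. Peaks hold no marker levels, so the tissue label was not checked against markers, and the cell types that contributed each site cannot be told apart.

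Cytochrome P450 enzymes are haem proteins that insert an oxygen atom into lipids, hormones, vitamins, drugs and pollutants. The genes of the families that handle foreign compounds and fatty acids have multiplied in tandem arrays in the mouse, whereas most genes of steroid, bile acid and vitamin D metabolism stand alone. In the mouse lung, club cells of the airway are known for Cyp2f2, which activates naphthalene. CTCF recognises its DNA motif with an array of zinc fingers and halts cohesin as it extrudes loops, and pairs of sites whose motifs face each other are often found at the base of chromatin loops.

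The sequences below carry the findings on cluster edges, promoters and duplicated sites. Each is 30 bases of the reference genome GRCm38 (mm10), written 5′ to 3′ on the strand named, with the best match to the core CTCF motif in capitals. The search covered 50 bp on either side of each summit and both strands, and allowed 1 mismatch in the 12 bases of the core. The first pair are the nearest sites on either side of the Cyp2c genes, which had no site among them, and the next is the strongest site found at the edge of any cluster, in an intron of Egln2.
Cyp2c left edge, in Cyp2c52-ps, chr19:38982155-38982184, plus strand: cacagccatCCACTAGAGGGCgggctttga
Cyp2c right edge, in Pdlim1, chr19:40225608-40225637, minus strand: aacccacagCCAGCAGGTGGCagtgtaggc
Cyp2b23 to Cyp2t4 right edge, in Egln2, chr7:27159980-27160009, plus strand: cccatgtgcCCACCAGGGGGCgcagcgcca

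Promoter sites with the core are shown for the strongest sites of single-copy genes and for Cyp1a1, the strongest promoter site of a clustered gene.
Cyp2w1 promoter, chr5:139355409-139355438, minus strand: tgcccctggCCACAAGAGGGCaccaggcca
Cyp1b1 promoter, chr17:79715726-79715755, minus strand: cacgcgtgtCCAGCAGGTGGCagagttcct
Cyp1a1 promoter, chr9:57688252-57688281, plus strand: ccacgggggCCAGAAGGGGGCatcaaattc

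Sites in the 3′ untranslated regions (3′ UTRs) of 5 Cyp4f genes are shown because each held the core on the strand of its gene.
Cyp4f17 3′ UTR, chr17:32528953-32528982, plus strand: cacccagagCCATCAGAGGGCgctgcagga
Cyp4f16 3′ UTR, chr17:32551292-32551321, plus strand: cacccagagCCATCAGAGGGCgctgcagga
Cyp4f37 3′ UTR, chr17:32635228-32635257, plus strand: cacagaacgCCAGCAGGGGGCgctagaggg
Cyp4f15 3′ UTR, chr17:32703027-32703056, plus strand: cgcagaataCCAGTAGGGGGCgctggagga
Cyp4f14 3′ UTR, chr17:32905388-32905417, minus strand: taccgagagCCAGCAGGGGGCgctgtgaaa

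Pairs of sites in duplicated sequence are shown because near-identical cores carried unequal signals.
Cyp2b10 intron, chr7:25917450-25917479, plus strand: ctttcccagACACTAGAGGGCaggcccacc
Cyp2b19 intron, chr7:26767266-26767295, plus strand: ctttcccagACACTAGAGGGCaggcccacc
Cyp2d intergenic, chr15:82417707-82417736, minus strand: ccacagtggCCAGTGGGTGGCagtggttct
Cyp2d9 intron, chr15:82438039-82438068, plus strand: ctacagtggCCAGTGGGTGGCagtggttct

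The first question was how often CTCF was bound at the start of a P450 gene. A site lay within 1000 bp of a TSS in 3 of 74 clustered genes (4.05%, 95% Wilson interval 1.39% to 11.3%) and in 10 of 25 single-copy genes (40%, 23.4% to 59.3%). Over all protein-coding genes the share was 39.8%. The interval of the clustered genes lay below that share, and the single-copy genes stood at it. Taken over the whole family, 13 of 99 genes (13.1%, 7.84% to 21.2%) had a promoter site. No test was made, because genes of 1 cluster share sequence and sites, and the intervals cover counting error only.

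Distances to the nearest site were longest in clustered genes. The median distance from a gene's TSS to the nearest summit was 59.4 kb in clustered genes, 2.02 kb in single-copy genes and 2.97 kb over all protein-coding genes. Clustered genes ranged from 184 bp at Cyp4f17 to 577 kb at Cyp2c67, and single-copy genes from 125 bp at Cyp2u1 to 42.1 kb at Cyp2e1. The ranges overlapped, but 30 clustered genes lay more than 100000 bp from any site and no single-copy gene did. Of all genes, 90.4% stood no farther off than that. The interval of the single-copy genes (86.7% to 100%) included this share, and that of the clustered genes (48.1% to 69.9%) lay below it. Most of the 30 genes shared the long gaps at the Cyp2c, Cyp3a, Cyp4a and Cyp2b13 to Cyp2a4 loci, so they are not independent. A site within 5000 bp was found for 8 clustered genes (10.8%), 17 single-copy genes (68%) and 56.6% of all genes. Within 25000 bp the counts were 28 clustered genes (37.8%) and 24 single-copy genes (96%), against 79.9% of all genes.

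**Figure D1:**
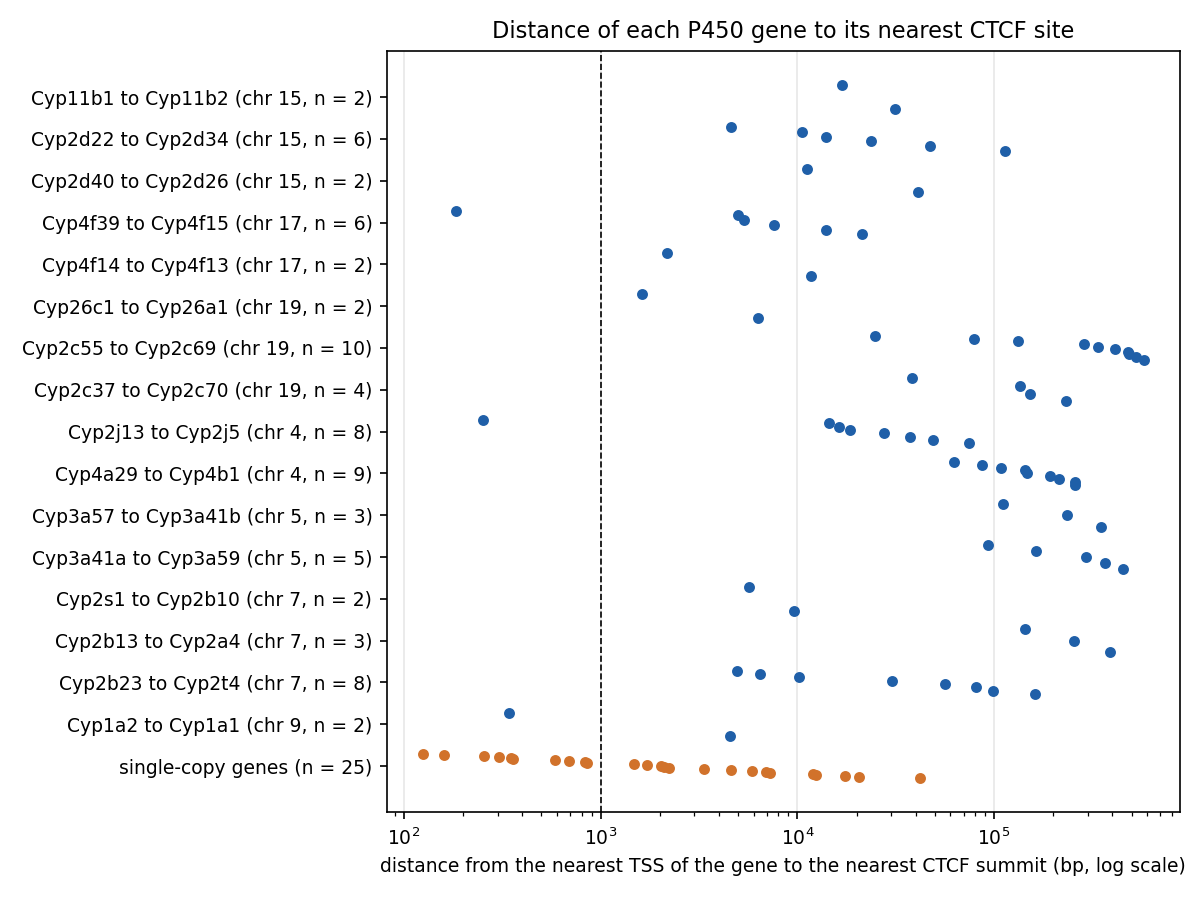
Distance from the TSS of each P450 gene to the nearest CTCF summit, in bp on a log scale, with 1 point per gene, a row for each of the 16 clusters (blue) and a last row for the 25 single-copy genes (orange). The dashed line is the 1000 bp limit of a promoter site; 3 clustered and 10 single-copy genes lie left of it, and the points of both Cyp2c, both Cyp3a, the Cyp4a and the Cyp2b13 to Cyp2a4 clusters all lie beyond 20 kb.

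The promoter sites of clustered genes were few, and 1 of them was strong. At Cyp1a1, the enzyme that oxidises polycyclic aromatic hydrocarbons under control of the aryl hydrocarbon receptor, the summit lay 342 bp downstream of the TSS, in an intron (chromosome 9, positions 57688195 to 57688340). Its signal was 86.1 in replicate 1 and 67.7 in replicate 2, and the core shown above lay on the strand of the gene. Cyp1a2, the divergent neighbour that oxidises caffeine, had its TSS 4567 bp from the same site and no nearer one. At Cyp2j9, of the subfamily that turns arachidonic acid into epoxides, a weak site lay 252 bp inside the gene, with 15.7 in replicate 1 and 12.8 in replicate 2. A stronger site at the same promoter stood 319 bp from the TSS on the intergenic side, with 40.2 and 41.4. At Cyp4f17, of a subfamily of fatty acid and eicosanoid hydroxylases, the site 184 bp inside the gene was the weakest of the family's promoter sites, with 12.4 in replicate 1 and 6.95 in replicate 2.

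Among single-copy genes, the strongest promoter sites belonged to families 1 and 2. Cyp2w1, known in human from fetal gut and tumours, had 227 in replicate 1 and 225 in replicate 2 at a site 848 bp downstream of an inner TSS. A second promoter site of the gene, 875 bp from the nearest of its TSSs, had 49.2 and 39.7 and also held the core. Cyp1b1, which oxidises oestradiol and aromatic hydrocarbons, had 186 and 184 at a site 694 bp upstream of its TSS. The stronger Cyp2w1 site and the Cyp1b1 site lay above every other promoter site of the family in both replicates. Cyp2u1, a fatty acid hydroxylase, had 53.5 and 52 at 125 bp inside the gene, in a coding exon. Cyp2ab1 had 18.8 and 27 at 583 bp downstream of an inner TSS.

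All 3 vitamin D genes had a site within 5000 bp, as did 56.6% of all genes. Cyp24a1, which inactivates the hormone, had 69.7 in replicate 1 and 66.9 in replicate 2 at 306 bp upstream, inside an intron of Pfdn4. Cyp2r1, which makes the circulating form, had 59.5 and 49 at 255 bp inside the gene. Cyp27b1, which makes the active form, had no promoter site, and its nearest site lay in its own intron at 1716 bp, with 31.4 and 46.6.

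Of 12 genes of sterol and steroid metabolism, 3 had a promoter site, against 39.8% of all genes, and all 3 were single-copy. Cyp27a1, the sterol hydroxylase of the acidic bile acid pathway, had 75.7 in replicate 1 and 37.6 in replicate 2 at 349 bp upstream. Cyp46a1, which clears cholesterol from neurons, had 47.9 and 16.1 at 357 bp upstream. These were among the promoter sites whose replicates differed most. Cyp21a1, an adrenal steroid hydroxylase, had 29 and 28.1 at 835 bp upstream, with the core in the minus orientation, the strand of the gene. In steroid synthesis itself, Cyp11a1, which cleaves the cholesterol side chain, lay 3370 bp from a weak intronic site of 10.5 and 13.5. Cyp17a1, the steroid hydroxylase and lyase, lay 2110 bp from an intronic site of 183 and 157. Cyp19a1, the aromatase that makes oestrogens, came nearest to the limit among the genes outside it, with a weak intronic site at 1472 bp from an inner TSS (9.32 and 9.78). Cyp11b1 and Cyp11b2, which make corticosterone and aldosterone, formed a cluster without a site, and Cyp11b2 lay 16815 bp from the nearest.

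The other genes of bile acid synthesis had no promoter site. Cyp7a1, the rate-limiting enzyme of bile acid synthesis, lay 17563 bp from an intergenic site of 56.5 in replicate 1 and 56.8 in replicate 2. Cyp8b1, which sets the share of cholic acid, lay 12488 bp from a strong intergenic site of 141 and 149. Both sites held the core without a mismatch. Cyp7b1 and Cyp39a1, which hydroxylate oxysterols, lay 2025 bp and 7278 bp from weaker sites, with 18.1 and 16.2 at Cyp7b1 and 19.1 and 18.8 at Cyp39a1.

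The 3 retinoic acid hydroxylases lay between 159 and 6314 bp from a site. Of all genes, 56.6% had one within 5000 bp and 79.9% within 25000 bp. Cyp26b1 had a weak promoter site in a coding exon, 159 bp from an inner TSS, with 16.8 in replicate 1 and 16.3 in replicate 2. Cyp26c1 lay 1614 bp from a site in its own coding exon, with 59.4 and 53. Cyp26a1 lay 6314 bp from a strong site beyond its 3′ end, with 176 and 175. At 3 of the 13 nearest promoter sites, those of Cyp2ab1, Cyp2w1 and Cyp26b1, the summit stood more than 1000 bp inside the gene from its outermost 5′ end.

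The remaining single-copy genes had no promoter site. Cyp20a1, an orphan enzyme, lay 2215 bp from its nearest site. In family 4, Cyp4f18, a leukotriene hydroxylase of myeloid cells, lay 4581 bp away, the fatty acid hydroxylase Cyp4v3 11970 bp and Cyp4x1 20644 bp. Cyp2c23, an arachidonic acid epoxygenase of kidney, lay 5892 bp away and Cyp3a13 6898 bp. Cyp2e1, which oxidises ethanol, was farthest at 42086 bp, from an intergenic site of 109 in replicate 1 and 99 in replicate 2. Cyp51, the sterol demethylase that the symbol rule leaves out, lay 2771 bp from a site of 32.7 and 32.0.

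By family, a promoter site was found in 6 of 60 genes of families 1 to 3, in 1 of 20 of family 4, in 3 of 12 of sterol and steroid metabolism, in 2 of 3 of vitamin D and in 1 of 3 of retinoic acid metabolism. Within families 1 to 3 the split was 2 of 53 clustered genes (1.04% to 12.8%) and 4 of 7 single-copy genes (25% to 84.2%). In sterol and steroid metabolism it was 0 of 2 clustered (0% to 65.8%) and 3 of 10 single-copy genes (10.8% to 60.3%), and both intervals included 39.8%.

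The base composition of gene starts differed between the groups. GC content within 500 bp of the outermost 5′ end had a median of 47.1% in clustered genes, 53.5% in single-copy genes and 54.8% over all genes. Where GC content was 47.6% or less, as in 5419 of all genes, a promoter site was present in 0 of 39 clustered genes, 1 of 6 single-copy genes and 11.6% of all genes. From 47.7% to 54.8% it was present in 3 of 32 clustered genes, 2 of 8 single-copy genes and 33.7% of all genes. From 54.9% to 61% it was present in 0 of 2 clustered genes, 5 of 9 single-copy genes and 51.7% of all genes, and above that in 0 of 1 clustered gene, 2 of 2 single-copy genes and 62.4% of all genes. Clustered genes also had a median of 1 annotated TSS, against 2 in single-copy genes and 2 over all genes. The part of GC content and of TSS number in the difference between the groups was not tested.

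The genes that serve the P450 enzymes were also counted, against the 39.8% of all genes with a promoter site. Of the electron donors, 4 of 7 had a promoter site, among them Por, the reductase that feeds every microsomal P450, with a weak signal of 12.8 in replicate 1 and 7.96 in replicate 2. The cytochrome b5 reductase Cyb5r3 had 80.9 and 85.1. Of the haem synthesis genes, 5 of 9 had one, the strongest at Ppox with 151 and 148, while Alas1, the rate-limiting enzyme of liver haem synthesis, lay 1755 bp from a weak site. Of 15 regulators of P450 genes, 9 had a promoter site. The strongest was at Nr1h3, the oxysterol receptor, with 225 and 210. Ahrr, the repressor of the aryl hydrocarbon receptor, had 81.8 and 89.3, and Ahr itself had 35.7 and 20.4.

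The second question was how CTCF sites were placed inside the clusters. The 16 clusters covered 4.29 Mb and held 41 sites, or 9.56 per Mb, against 25.3 per Mb over the called sequence of all chromosomes. At that mean density the same length would hold 108 sites. The 100000 bp on either side of the clusters held 109 sites in 2.89 Mb, or 37.7 per Mb. The bodies of clustered genes held 25 sites, or 13.2 per Mb, while those of single-copy P450 genes held 33 sites, or 44.4 per Mb, and all protein-coding genes 34.8 per Mb. The chromosomes of the clusters ranged from 27 to 33.8 sites per Mb.

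The sites were distributed unevenly, and 8 of 16 clusters, with 38 members and 2.45 Mb, held none. At the mean density that length would hold 61.9 sites. These clusters were picked for holding none, so that number gives their size and does not measure a depletion. The longest such stretch was the Cyp2c locus on chromosome 19, whose enzymes oxidise drugs and arachidonic acid. Its 14 genes formed 2 clusters of 880 kb and 195 kb, without a site in either or between them. The gap between the flanking sites was 1243 kb, and of 64712 gaps between neighbouring sites 143 were as long or longer (0.221%). Cyp2c55 at one end lay 24862 bp from a site and Cyp2c70 at the other end 38329 bp.

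The Cyp3a genes on chromosome 5, which include Cyp3a11, a main drug-oxidising enzyme of mouse liver, also formed 2 clusters without a site, in a gap of 938 kb. As long or longer were 215 gaps (0.332%). Cyp3a59 lay 93669 bp and Cyp3a57 110435 bp from the nearest site, and these were the closest genes of their clusters. The cluster of 8 Cyp4a genes, fatty acid hydroxylases under control of PPARα, and Cyp4b1, abundant in rodent lung, lay in a gap of 555 kb on chromosome 4, with 0 sites of the optimal and 1 of the conservative list. Cyp4b1 was its closest gene, at 62279 bp. The remaining clusters without a site were Cyp2b13 to Cyp2a4, Cyp2d40 to Cyp2d26 and Cyp11b1 to Cyp11b2. In Cyp2b13 to Cyp2a4 the closest gene was Cyp2b13 at 143990 bp, and in Cyp2d40 to Cyp2d26 it was Cyp2d26 at 11153 bp.

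Other clusters were densely bound. Cyp26c1 to Cyp26a1 held 2 sites in 16 kb, or 125 per Mb, both in coding exons of Cyp26c1, with 75.1 in replicate 1 and 43.2 in replicate 2 at the stronger by the optimal list. Cyp1a2 to Cyp1a1 held 2 sites, or 74.4 per Mb, but 1 of the conservative list. Its weaker site had 19.4 in replicate 1 and 6.03 in replicate 2. The rates of such short clusters rest on few sites. Cyp4f14 to Cyp4f13 held 3 sites, or 70.9 per Mb. Of those 3, 2 were overlapping peaks in an intron of Cyp4f13, and 1 of these had no peak of replicate 1 within 100 bp. Cyp2s1 to Cyp2b10 held 9 sites in 124 kb, or 72.5 per Mb. Its strongest site was intergenic, with 168 in replicate 1 and 152 in replicate 2. Cyp2s1, an epithelial P450 that metabolises retinoids, had a site of 157 and 144 inside the gene, 9669 bp from a TSS. Cyp2b10, the classic target of phenobarbital induction, had 3 intronic sites, the nearest 5677 bp from a TSS with 64 and 51.4.

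The cluster from Cyp2b23 to Cyp2t4 showed both patterns. It held 8 sites in 493 kb, or 16.2 per Mb, of which 5 lay in or beside Cyp2b19 and 3 inside Cyp2f2. At Cyp2f2 the strongest of the cluster lay in an intron 6463 bp from a TSS, with 145 in replicate 1 and 146 in replicate 2. It held no core with at most 1 mismatch, whereas an intronic site of 61.6 and 65.6 nearer the 3′ end held the core exactly. Between Cyp2b19 and Cyp2f2, the genes Cyp2g1, Cyp2a5, Cyp2a22 and Cyp2a12, which include the coumarin hydroxylase Cyp2a5, held no site. Cyp2t4, whose TSS came closest to a site in this cluster, lay 4920 bp from the Egln2 site beyond the edge.

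The Cyp2j cluster was long and sparsely bound, with 5 sites in 637 kb, or 7.85 per Mb, and its sites of highest signal had 40.9 in replicate 1 and 39.8 in replicate 2 and, at Cyp2j9, 40.2 and 41.4. The Cyp2d cluster from Cyp2d22 to Cyp2d34 held 3 sites, the strongest of the 41 being intergenic with 201 and 204. Cyp2d9 was the nearest gene of that cluster to a site, at 4597 bp. The Cyp2d subfamily contains the mouse relatives of the human debrisoquine hydroxylase.

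**Figure D2:**
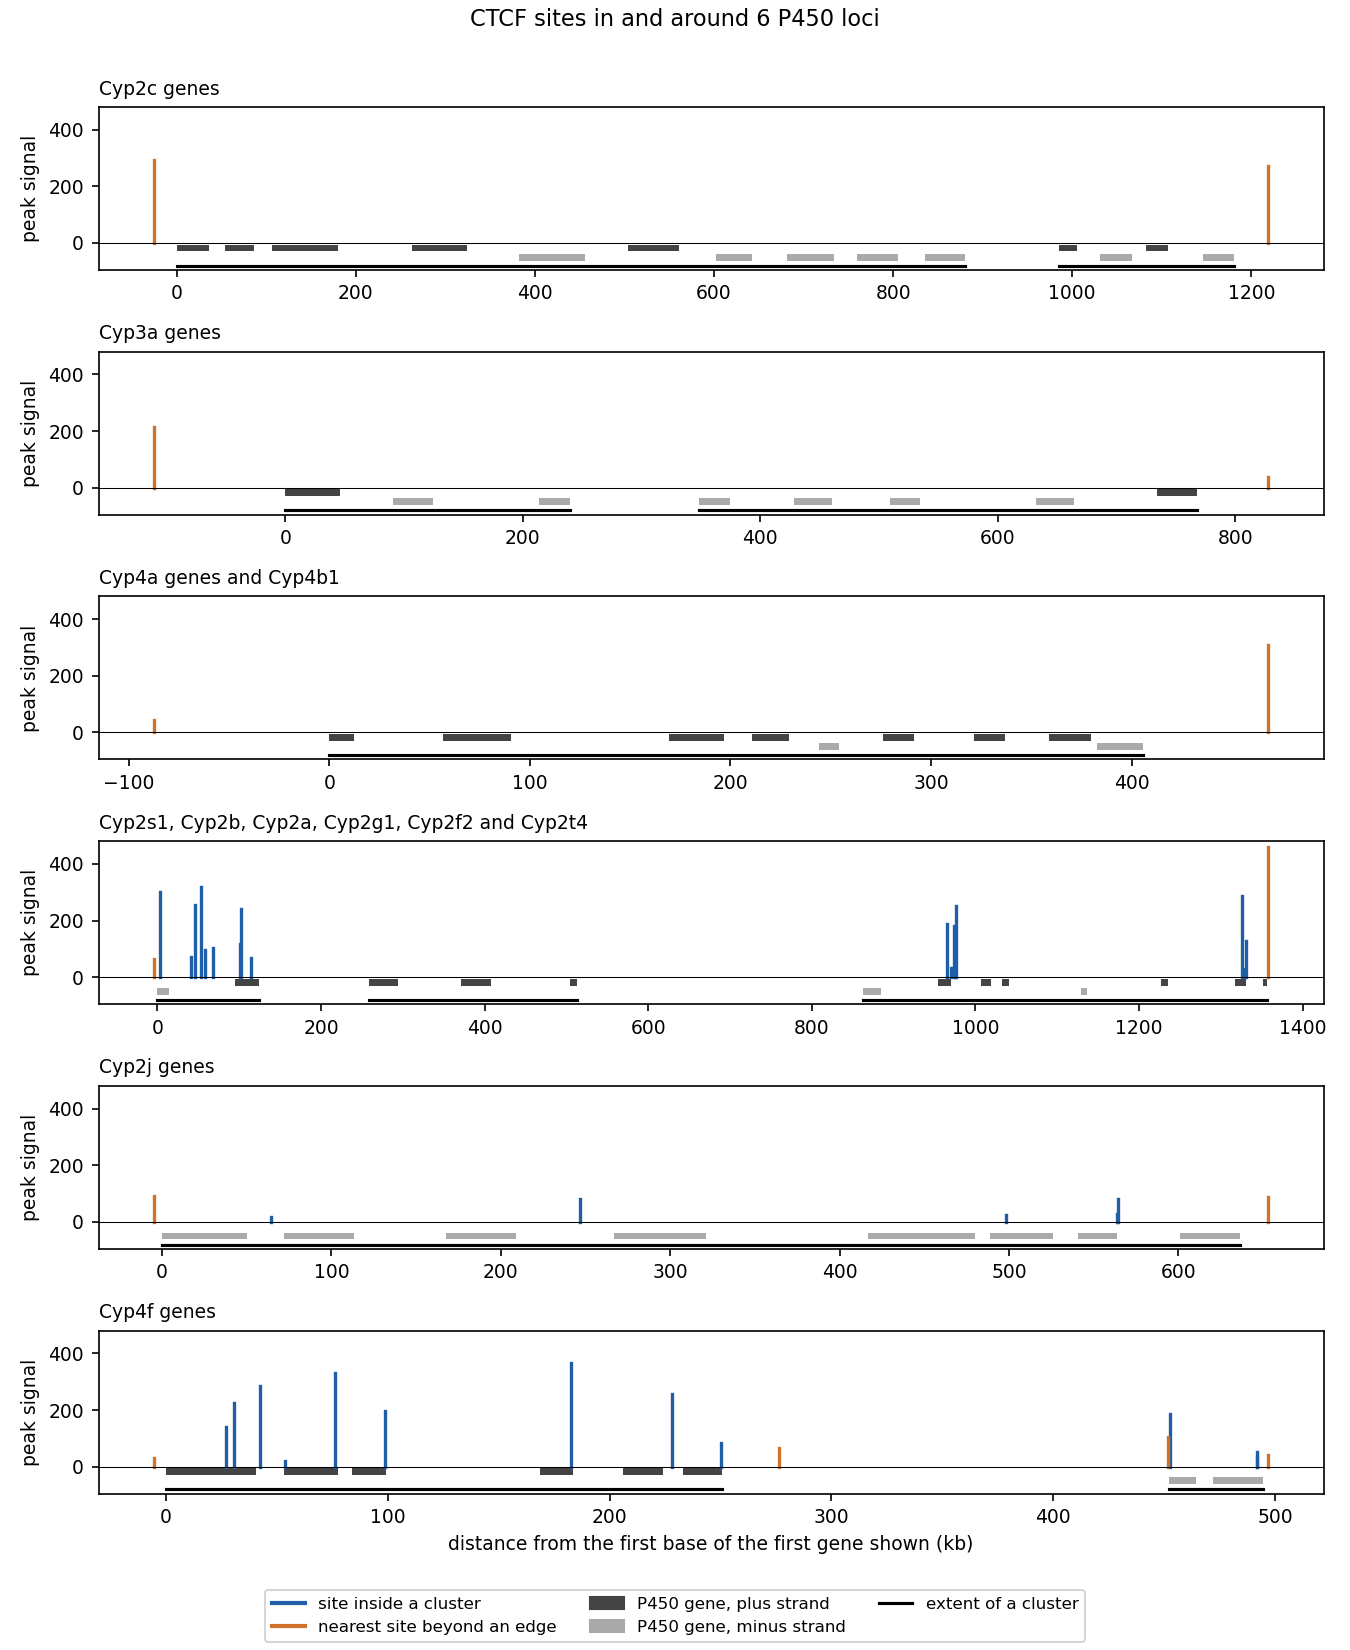
CTCF sites at 6 P450 loci, drawn to scale in kb from the first base of the first gene shown, with the peak signal of the optimal list as the height of each line. Blue lines are the sites inside clusters, orange lines the nearest sites beyond a cluster edge (a site that is both is drawn in blue), bars the P450 genes by strand, and black lines the extent of each cluster. No blue line stands over the Cyp2c, Cyp3a or Cyp4a genes, whereas the Cyp4f39 to Cyp4f15 cluster holds 9 and the Cyp2s1 to Cyp2b10 cluster 9.

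Sites inside the clusters were not weak ones. Their median signal in the optimal list was 116, against 76.2 over all sites, and 27 of 41 lay above the median of all sites. The 15 sites within 1000 bp of a TSS of a P450 gene, which are the nearest sites of the 13 genes and a second site each at Cyp2j9 and Cyp2w1, had a median of 89.6, and promoter sites of all genes 56.6. Of the 41, 4 were at a promoter, 5 in a UTR, 3 in a coding exon, 2 in another exon, 15 in an intron and 12 between genes. The core was present at 27 of 41 (65.9%, 50.5% to 78.4%), against 48.3% of all sites, and at 6 of 15 P450 promoter sites (40%, 19.8% to 64.3%), against 20.6% of all promoter sites. The interval of the P450 promoter sites includes the share of all promoter sites and that of all sites. Promoter sites, which held the core less often, were 10482 of all 64732 sites and 4 of the 41. The comparison of the 41 with all sites was not adjusted for this mix.

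All 5 of the sites in a UTR belonged to Cyp4f genes. Cyp4f17, Cyp4f16, Cyp4f37, Cyp4f15 and Cyp4f14 each had a site in the 3′ UTR, between 315 and 1175 bp from the 3′ end of the gene, and in each the core lay on the strand of the gene. The signals were 164 in replicate 1 and 168 in replicate 2 at Cyp4f17, and 101 and 96.4 at Cyp4f16. Cyp4f37 had the highest of the 5 in replicate 1, with 207, and 160 in replicate 2. At Cyp4f15 the signals were 46.9 and 33.4, below the other 4 in both replicates. At Cyp4f14, which lies on the other strand of the chromosome, they were 90.4 and 94.4. The 30 bases shown above were identical in Cyp4f16 and Cyp4f17, shared 24 bases between Cyp4f15 and Cyp4f37, and shared 19 to 22 in the other pairs, so the 5 sites lie in related copies and are not independent. Of all 64732 sites, 1281 lay in 3′ UTRs of protein-coding genes, which is a count of sites and not of genes. Over all protein-coding genes, 309 of 636 stranded cores in 3′ UTRs (48.6%) lay on the strand of the gene. The other 3 clustered Cyp4f genes, Cyp4f39, Cyp4f40 and Cyp4f13, had no site in their 3′ UTR. Among single-copy genes, Cyp3a13 had a 3′ UTR site of 64.6 and 65.2 with the core on the strand opposite to the gene, and Cyp26b1 one of 39.8 and 29.4 without the core.

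The pairs of sites in duplicated sequence described first were picked for their unequal signals. The introns of Cyp2b10 and Cyp2b19 held cores with identical 30 bases, but the signal at Cyp2b10 was 31.2 in replicate 1 and 31 in replicate 2, against 104 and 85.5 at Cyp2b19. The core stood 42 bp from the summit at Cyp2b10 and 0 bp from it at Cyp2b19. The 31-mer at the core had 2 copies in the genome at Cyp2b10 and 1 at Cyp2b19. In the Cyp2d cluster, a pair of cores on opposite strands shared 29 of 30 bases, and the intergenic copy had 201 and 204 against 21.2 and 11.3 in the intron of Cyp2d9. Both pairs differed by more than the replicates did. The 3′ UTR sites of Cyp4f17 and Cyp4f16, also identical in 30 bases, had 164 and 168 against 101 and 96.4. The treatment of reads that match several places (not given in the sources used here) was not tested for its part in these differences.

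The most frequent core of all sites, CCAGAAGAGGGC, with 1 mismatch to the motif, occurred at 10 of 42 sites with a core inside or at the edges of the clusters (23.8%), and all 10 lay in repeat-masked sequence. Over all sites with a core the share was 19.3%, and 99.6% of those were repeat-masked. It stood at both edges of the Cyp1a pair and of Cyp4f39 to Cyp4f15, at the left edges of Cyp2s1 to Cyp2b10 and Cyp4f14 to Cyp4f13, and inside the Cyp1a, Cyp2j and Cyp2s1 to Cyp2b10 clusters.

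The third question was what lay at the edges of the clusters. Within 25000 bp beyond an edge, a site was found at 14 of 32 edges (43.8%, 28.2% to 60.7%), against 62.4% of the ends of all protein-coding genes. Both edges had one in 3 of 16 clusters (18.8%, 6.59% to 43%), against 47.1% of all protein-coding genes. These 3 were Cyp4f14 to Cyp4f13, Cyp2j13 to Cyp2j5 and Cyp1a2 to Cyp1a1. Edges that the cut at 100000 bp made inside a locus were counted too. Examples are the facing edges at Cyp2c69 and Cyp2c37, 339 kb and 1010 kb from the next site on that side. The shares of edges and of clusters therefore depend on the cut. With genes at most 200000 bp apart joined, 4 of 12 clusters had a site beyond both edges, and with at most 50000 bp 2 of 19. The 32 edges had 25 distinct nearest sites, because neighbouring clusters share them. Their median signal was 76.2, the same as over all sites, and 12 of 25 lay above it.

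The strongest edge site was the one in Egln2, a hydroxylase of the oxygen-sensing pathway, 1.33 kb beyond Cyp2t4. It had 240 in replicate 1 and 220 in replicate 2, and 1.07% of all sites were as strong or stronger. The edge beyond Cyp2d26, 11.2 kb away, had 188 and 171 without the core, and that beyond Cyp26a1, 2.58 kb away, had 176 and 175. Beyond Cyp4b1 the site stood 62.3 kb away with 136 and 172, and on the other side of the Cyp4a genes 87.2 kb away with 18.4 and 23.4. The weakest was the site in an intron of Exoc6, 37.2 kb from Cyp26c1, with a signal of 8.58 in the optimal list and no peak of either replicate within 100 bp.

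The Cyp2c genes were flanked by strong sites on both sides, with 149 in replicate 1 and 144 in replicate 2 in an intron of the pseudogene Cyp2c52-ps, and 133 and 142 in an intron of Pdlim1. Both cores were exact, and they faced each other across the locus, the left on the plus strand and the right on the minus strand. The Cyp3a genes had 112 and 103 on the left, in an intron of Zfp655, and 22.3 and 15.5 on the right, with both cores on the plus strand. The gap of 850 kb around Cyp2b13, Cyp2b9 and Cyp2a4 ran from the Cyp2b10 intron to the Cyp2b19 intron, again with both cores on the plus strand. Over all 32 edges the core pointed toward the cluster at 10, away from it at 14 and could not be assigned at 8. Of 10 clusters with a stranded core at both edges, both pointed inward at 2, which are the 2 Cyp2c clusters with their shared pair of sites, and both pointed outward at 3, Cyp4f39 to Cyp4f15, Cyp2s1 to Cyp2b10 and Cyp1a2 to Cyp1a1.

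The remaining edges had sites of low to middling signal. Around the Cyp11b pair the sites stood 34.1 kb to the left with 17.3 in replicate 1 and 31.9 in replicate 2, and 16.8 kb to the right with 26.1 and 23.7. Left of Cyp2d22 the site stood 8.57 kb away with 91.6 and 74.9, and the site of 11.3 and 9.22 near Cyp2d12 was the left neighbour of Cyp2d40, 252 kb away. Around Cyp4f39 to Cyp4f15 they stood at 5.33 kb with 15.8 and 13.9, and at 25.9 kb with 40.1 and 24.8. Around the smaller Cyp4f pair they stood at 0.475 kb with 62.1 and 42.3, and 2.17 kb beyond Cyp4f13 with 28.5 and 11. The Cyp2j genes had 54.1 and 37.5 on the side of Hook1, 4.52 kb away, and 51.2 and 37.5 on the other side, 16.3 kb away. The Cyp1a pair had 17.2 and 14.3 at 12.9 kb, and 37.4 and 40.3 in Edc3 at 8.57 kb. Left of Cyp2s1 the site stood 3.72 kb away with 35.1 and 26.5.

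**Figure D3:**
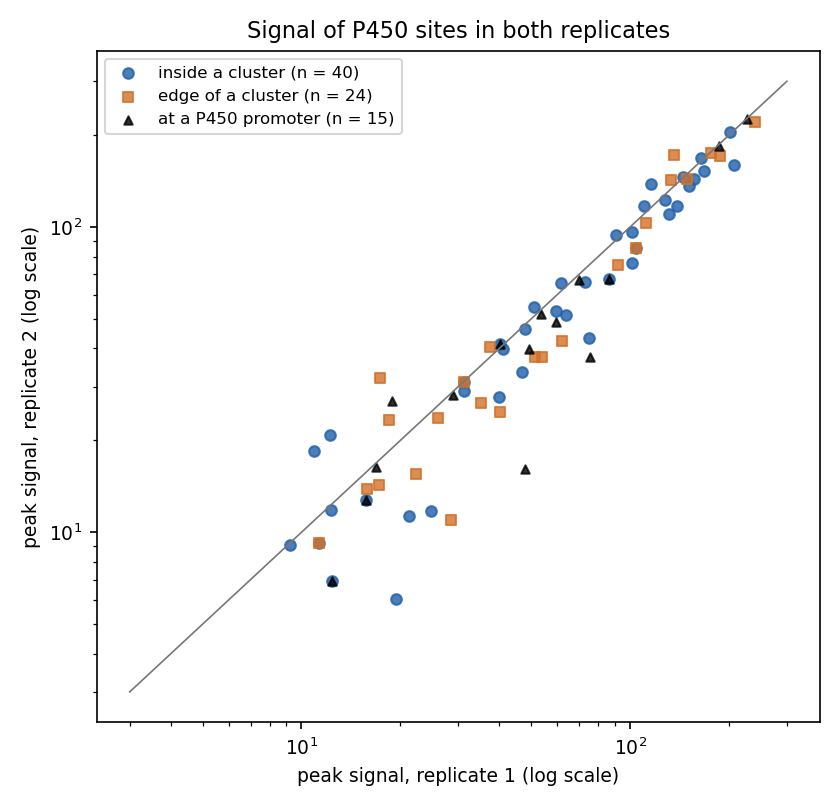
Peak signal in replicate 1 and replicate 2, both on log scales, at sites inside clusters (circles, 40 with a peak in both replicates), at cluster edges (squares, 24) and at P450 promoters (triangles, 15), where a site can belong to several kinds. The grey line marks equal signals; most points lie close to it, and Cyp46a1 (47.9 and 16.1) is the promoter site farthest from it.

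The spread between replicates was of similar size at P450 sites and over all sites. The SD of log2(replicate 1 / replicate 2) was 0.43 at sites inside the clusters (n = 40), 0.42 at edge sites (n = 24), 0.51 at P450 promoter sites (n = 15) and 0.46 over all sites (n = 63131). The median ratio was 0.13 inside the clusters, 0.16 at edges, 0.06 at promoters and 0.09 over all sites, on the log2 scale. All 15 promoter sites and 40 of 41 inside sites had a peak in both replicates.

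Taken as groups, clusters with more repeated sequence held fewer sites per Mb. Stretches of 31 bases (31-mers) with another copy in the genome made up 39.3% of the clusters and 16.8% of a genome-wide grid. In the bodies of single-copy P450 genes they made up 7.68%, but the clusters also include the sequence between genes. The share was 46.6% in clusters without a site and 29.6% in those with one. The 5 clusters below the genome's share held 16 sites in 0.232 Mb, or 69.1 per Mb, and the 11 above it held 25 sites in 4.06 Mb, or 6.16 per Mb. This split was chosen after the values were seen. Of 8 clusters without a site, 7 were among the 11, and Cyp11b1 to Cyp11b2 (11.6%) was the exception.

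**Figure D4:**
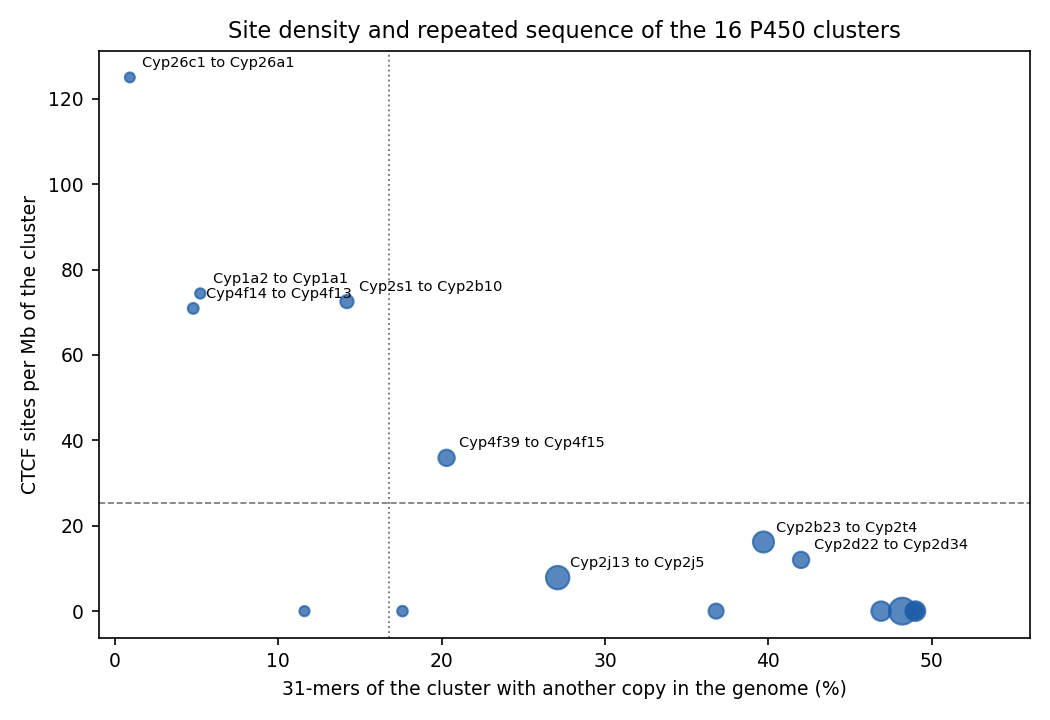
CTCF sites per Mb of each of the 16 P450 clusters, plotted by the percentage of its 31-mers that have another copy in the genome, with larger points for longer clusters. The dashed line is the density over all chromosomes (25.3 per Mb) and the dotted line the repeated share of the genome (16.8%); the Cyp26 pair stands at 0.909% and 125 sites per Mb, and 6 clusters above 36% stand at 0.

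Cores of the motif were counted whether or not a site was present. Cores with at most 1 mismatch numbered 71.8 per Mb in the clusters, 61.2 per Mb in clusters without a site and 84.2 per Mb over all chromosomes. A site was present at 27 of 308 such cores in the clusters (8.77%, 6.09% to 12.5%), against 15.1% over all chromosomes. Counting only cores in a 31-mer that occurs once in the genome, it was present at 25 of 167 in the clusters (15%, 10.4% to 21.2%), against 19.8%, and the interval then included the genome's share. The clusters without a site, where by their definition no core was at one, held 54 such unique cores. Exact cores in unique 31-mers were bound at 7 of 11 in the clusters (63.6%, 35.4% to 84.8%), against 67.1%, and the clusters without a site held 1 such exact core. The less stringent list of 300000 pooled peaks had 41.3 peaks per Mb in the clusters and 14.7 per Mb in those without a site, against 117 per Mb over all chromosomes. The part of repeated sequence, of read mapping and of motif frequency in the low density was not tested further.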

How the data were processed

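CTCF ChIP-seq peak lists (mm10, per the labels) of 2 replicates were used. Per the deposited descriptions, each replicate's list came from its alignments and 1 further file of unstated role, the labels name a possible control, and both IDR lists, optimal and conservative, derive from those of the replicates and of the pool. The aligner, the caller and the cutoff of the IDR were not given in the sources used here. Each peak's signal and the −log10 of its q-value were deposited by the authors, and the scaling of the signal is not given. Lists carry no read counts, so depth is unknown. Replicate signals are those of the highest peak within 100 bp of a summit, and signal only describes and ranks.

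Genes came from GENCODE M21 and sequences from GRCm38. All TSSs of protein-coding transcripts were used. Clusters run from the first to the last base of their members. Edges are the nearest summits beyond. Cores on both strands with equal mismatches had no orientation. Repeated 31-mers were counted on both strands, exactly, on a grid of 1000 bp for the genome. Shares have 95% Wilson intervals and no test was planned. Named were all genes with a promoter site, all single-copy genes, the nearest gene, the strongest inside site and both edge sites of each cluster, and a list of lung, steroid and retinoid genes. The members and lists were chosen with earlier results of these data known. Comparisons of 31-mers, repeat masking, 3′ UTRs, GC content and duplicated sites were added after the values were seen. The searches were tested on simulated data. Python 3.11.15, numpy 2.4.6, pandas 2.3.3, scipy 1.17.1 and numba 0.67.0 were used, with matplotlib 3.10.9 for figures.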

Additional observations from a re-analysis of the deposited data

Results flagged for a closer look

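Peaks outside the IDR lists were also searched for the core. Inside the clusters, 116 peaks of the pooled list were in neither IDR list and lay more than 2000 bp from a listed site, and 9 of them held the core (7.76%, 95% Wilson interval 4.14% to 14.1%). The highest signal of these 9 was 16.9, 5 of them had a peak in both replicates, and 1 lay in a cluster without a site, Cyp2b13 to Cyp2a4, with 8.98 in replicate 1 and 6.16 in replicate 2. The share was not set against windows without a peak, so it does not show that CTCF was bound at these peaks.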

How the results depend on the processing

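The share of clustered genes with a promoter site ranged from 2.7% to 10.8% over the 9 alternatives that kept both replicates, all within its interval. The share of single-copy genes ranged from 23.8% to 68%, the lowest with genes at most 50000 bp apart and the highest with TSS distances up to 5000 bp, where all genes stood at 56.6%. It was 24% within 500 bp, where all genes stood at 33.2%. With the outermost 5′ end of each gene alone it was 28%, and with the 32366 sites of highest signal 24%. Shares of all genes at these last settings are not given here. Taking only the sites of highest signal (32366 of 64732) left 27 sites and 6.29 per Mb in the clusters. Joining genes at most 50000 bp apart gave 13.1 per Mb, and at most 200000 bp apart 8.55 per Mb. In the clusters with a lower share of repeated 31-mers than the genome, an alternative added after the values were seen, 16 sites or 69.1 per Mb remained. The core was present at 17.1% of cluster sites with no mismatch and at 82.9% with 2. Sites beyond both edges were found for 1 cluster within 10000 bp and for 6 within 50000 bp. With each replicate left out, the list was the 64732 peaks of highest signal of the other, without the IDR threshold. The number of sites over all chromosomes was thus fixed in advance. These lists gave a promoter site at 4.05% to 4.05% of clustered and 40% to 48% of single-copy genes. Inside the clusters they gave 41 to 43 sites, 9.56 to 10 per Mb and the core at 58.1% to 61%. Sites beyond both edges were found for 3 to 3 clusters. No paired analysis was possible because there was 1 group. Depth is unknown, so an absent site means only that no peak passed the authors' threshold.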
